A study of Mus musculus with 24 samples.

Results

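The genes examined were NRF2 (gene Nfe2l2), its inhibitor Keap1 and 8 of the detoxifying enzymes and transporters that NRF2 switches on. The members were taken by gene symbol from the deposited gene table, and each of the 10 symbols matched exactly 1 of the 48709 genes. They are the regulators Nfe2l2 and Keap1, the glutathione genes Gclc, Gclm, Slc7a11 and Gsr, the thioredoxin genes Txnrd1 and Srxn1, and the quinone and heme enzymes Nqo1 and Hmox1.

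NRF2 is a transcription factor that responds to oxidants and electrophiles. At rest KEAP1 holds it in the cytoplasm and hands it to a ubiquitin ligase for degradation. Oxidants modify KEAP1, and NRF2 then enters the nucleus, pairs with a small MAF protein and binds antioxidant response elements near genes of glutathione synthesis, thioredoxin recycling and quinone and heme breakdown. These transcripts are widely used as readouts of oxidative stress, including that caused by airborne particles. The activity of NRF2 is set largely through its protein, which RNA-seq does not measure.

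The study exposed pregnant dams to nano-sized particulate matter (nPM), the finest fraction of urban traffic-related particles, or to filtered air, and sequenced RNA from the blood and cerebral cortex of their pups. There were 24 libraries, 12 from each tissue, with 6 nPM and 6 control libraries per tissue and 3 of each sex in every group. By the labels all pups were of the C57BL/6J strain and 3 to 5 days old, whereas the study's methods give C57BL/6NJ and day 5. Dams inhaled nPM for 5 hours a day on 3 days a week from gestational day 2 until birth, and the labels write the dose as 300 mg/m3, a unit that differs from the one in the study's methods. Pups themselves were not exposed after birth, and pups are the replicates, so p-values measure the spread between these pups. The exposure was given to dams, and by the methods the 3 pups of a sex and exposure came from different litters. The labels name no litter, so a male and a female may share one. No fit accounts for litter. By the methods blood and cortex came from the same pups, but the labels do not tell which libraries share a pup. No test pairs them, and the fits over both tissues treat all libraries as independent.

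Cortex libraries held 22301409 to 33804371 counts on genes, and blood libraries 13595647 to 21895536. RNA integrity numbers ran from 9.4 to 9.9 in cortex and from 7.5 to 9.3 in blood. Sequencing lane 1 held only blood, lane 2 only cortex and lane 3 both. In comparisons of the tissues below, tissue cannot be told apart from RNA integrity, and lane was not a covariate. Globin genes took 66.2 to 76.8% of the counts in 11 blood libraries and at most 0.068% in cortex. The tissue labels held: erythroid markers summed to at least 695168 CPM (counts scaled to the library's total) in those blood libraries and to at most 701 in cortex. Cortical neuron markers summed to at least 4222 CPM in cortex and at most 26.4 in the same 11 blood libraries. The control female blood library V2 stood apart, with 50.1% globin counts, 22461 genes detected against 13254 to 17273 in the others, and meningeal (collagen) markers summing to 4355 CPM against 10.9 to 38.9. It also held 74.1 CPM of cortical neuron markers, 34.7 of astrocyte and radial glia markers and 44.7 of oligodendrocyte lineage markers. The study left out 1 blood library without naming it, and V2 was taken here to be that library. V2 was left out of every blood comparison below unless it is named.

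In both tissues all 10 members were detected in every library. The depth behind them differed greatly. In cortex each library held 1964 to 2866 counts of Txnrd1, the thioredoxin reductase of the cytosol, and 61 to 115 counts of Nqo1, the quinone reductase. In blood Gclm, the modifier subunit of the enzyme that begins glutathione synthesis, had 3696 to 9906 counts, but Keap1 had only 7 to 38, Hmox1 8 to 24 and Slc7a11 4 to 26. Changes in those 3 genes could be seen in blood only if they were large.

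Whole gene bodies on mm10 are given by the deposited table as Nfe2l2 at chr2:75675513-75704641 (minus strand), Keap1 at chr9:21229730-21239332 (minus strand), Gclc at chr9:77754535-77794485 (plus strand), Gclm at chr3:122245557-122270732 (plus strand), Slc7a11 at chr3:49892526-50443614 (minus strand), Gsr at chr8:33652523-33698163 (plus strand), Txnrd1 at chr10:82859206-82897724 (plus strand), Srxn1 at chr2:152105516-152111376 (plus strand), Nqo1 at chr8:107388225-107403206 (minus strand) and Hmox1 at chr8:75093621-75100589 (plus strand). Gclc, Srxn1, Nqo1 and Hmox1 overlap no other gene in that table.

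Gene starts of 7 of the 10 members were in the RefSeq promoter table (build GRCm38.p6, 250 bases before to 50 after each start). Both strands were searched for the core of the antioxidant response element, written TGACNNNGC or TGAGNNNGC. One of these was found for 5 of the 7 genes, Nfe2l2, Slc7a11, Gclm, Srxn1 and Txnrd1, and neither was found in this window for Keap1 or Nqo1. The 7 genes have 9 promoters in the table, 3 of them for Txnrd1, of which 1 held a match. That made 5 of 9 promoters, where by letters alone 27.8% of the 32851 promoters hold one or the other. The 250 bases before the start are shown for 3 genes, 5′ to 3′ on the strand of the gene: Gclm, which dominated the set in blood, Txnrd1, which led it in cortex, and Srxn1, which held the most matches. Capitals mark the motif on either strand.

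Gclm, chr3:122245307-122245556, plus strand: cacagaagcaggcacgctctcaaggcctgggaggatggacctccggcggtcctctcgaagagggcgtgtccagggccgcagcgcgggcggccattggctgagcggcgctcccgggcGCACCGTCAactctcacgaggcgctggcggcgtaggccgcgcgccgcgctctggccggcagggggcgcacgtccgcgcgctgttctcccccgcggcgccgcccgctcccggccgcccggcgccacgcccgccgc
Txnrd1, chr10:82858956-82859205, plus strand: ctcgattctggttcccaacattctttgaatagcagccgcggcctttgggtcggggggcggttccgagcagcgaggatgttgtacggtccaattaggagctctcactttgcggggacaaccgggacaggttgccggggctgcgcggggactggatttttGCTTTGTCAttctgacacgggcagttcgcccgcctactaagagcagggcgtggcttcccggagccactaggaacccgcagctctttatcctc
Srxn1, chr2:152105274-152105523, plus strand: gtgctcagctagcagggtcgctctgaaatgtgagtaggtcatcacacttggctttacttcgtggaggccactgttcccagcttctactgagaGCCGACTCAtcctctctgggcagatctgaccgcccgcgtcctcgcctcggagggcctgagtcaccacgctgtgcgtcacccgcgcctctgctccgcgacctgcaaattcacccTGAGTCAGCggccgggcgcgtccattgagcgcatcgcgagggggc

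The Gclm match, TGACGGTGC on the minus strand, spans bases -134 to -126 counted from the start. The Txnrd1 match is TGACAAAGC at -92 to -84, also on the minus strand. Srxn1 holds TGAGTCGGC on the minus strand at -158 to -150 and TGAGTCAGC on the plus strand at -45 to -37, and a further match lies after the start at 29 to 37, outside the printed window. These are matches of letters and not measured binding.

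The first question was how much of each gene the 2 tissues made. Levels of different genes were compared as RPKM, counts scaled by gene length and by the library's total, and ratios of 2 genes within 1 library do not depend on any scaling between libraries. In cortex Txnrd1 made up 24.2 to 29.4% of the summed RPKM of the 10 members and Nqo1 1.52 to 2.40%. Txnrd1 was highest at 23.8 ± 1.32 RPKM (SD, n = 12), above the next gene in 12 of 12 libraries. Srxn1, which reactivates oxidized peroxiredoxins, followed at 13.2 ± 0.933, then Gsr, glutathione reductase, at 12.1 ± 0.468, Gclc, the catalytic subunit of glutamate-cysteine ligase, at 10.5 ± 0.593 and Keap1 at 10.5 ± 0.422 RPKM. Gclc and Keap1 could not be ordered, because Gclc was the higher in 5 of 12 libraries. Below them came Gclm at 6.85 ± 0.319, Slc7a11, the cystine importer, at 5.43 ± 0.620, Nfe2l2 at 2.71 ± 0.314, Hmox1, heme oxygenase 1, at 1.94 ± 0.374 and Nqo1 at 1.74 ± 0.243 RPKM. Hmox1 was above Nqo1 in only 8 of 12 libraries.

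In blood 1 gene made up most of the set. Gclm stood at 46.9 ± 12.6 RPKM (SD, n = 11), which was 74.0 to 83.2% of the summed RPKM of the 10 members in each library, against 7.07 to 8.16% in cortex. The next genes, Nqo1 at 3.20 ± 1.56 and Gsr at 3.19 ± 0.616 RPKM, did not differ beyond their spread. Srxn1 followed at 1.93 ± 0.479 RPKM and Gclc at 1.68 ± 0.175. Nfe2l2 at 0.702 ± 0.222, Txnrd1 at 0.552 ± 0.149 and Hmox1 at 0.420 ± 0.111 RPKM overlapped with their neighbours in this order. Keap1 at 0.233 ± 0.0878 and Slc7a11 at 0.0443 ± 0.0208 RPKM were lowest.

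**Figure D1:**
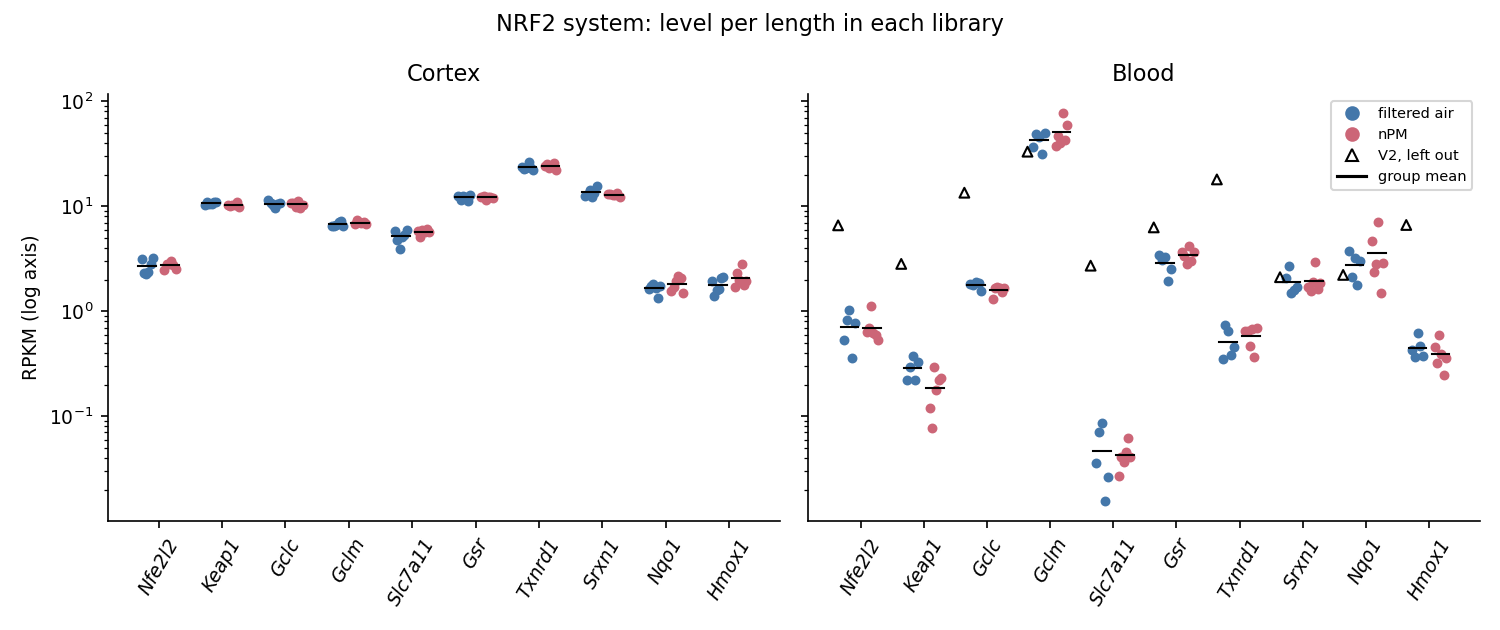
Level of each gene in RPKM (log axis) in every library of cortex (left) and blood (right), with filtered air in blue, nPM in red, black bars for group means and open triangles for blood library V2, which was left out. Gclm stands alone at 31.7 to 77.5 RPKM in blood, the order of the genes differs between the tissues, and the blue and red points of each gene overlap.

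The 2 subunits of glutamate-cysteine ligase showed the contrast most plainly. Within a library the ratio of Gclm to Gclc was 0.562 to 0.736 in the 12 cortex libraries and 16.9 to 46.1 in the 11 blood libraries, so the groups were far apart. In V2 it was 2.46. The ratio of Keap1 to Nfe2l2 moved the other way, from 3.33 to 4.74 in cortex to 0.112 to 0.619 in blood, and V2 lay within the blood range at 0.429. These pairs were chosen after their values were seen, so the ratios are given as a description. In bulk tissue fewer cells of a type and less RNA per cell cannot be told apart. Lengths are those of all exons of a gene, so a tissue that uses a shorter transcript would appear lower. Gclm also overlaps the antisense gene Gm17494, which held 133 to 277 counts per cortex library and 0 to 6 in blood. The strandedness of the libraries is not given in the sources used here, so reads of such a pair may not be separated.

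**Figure D2:**
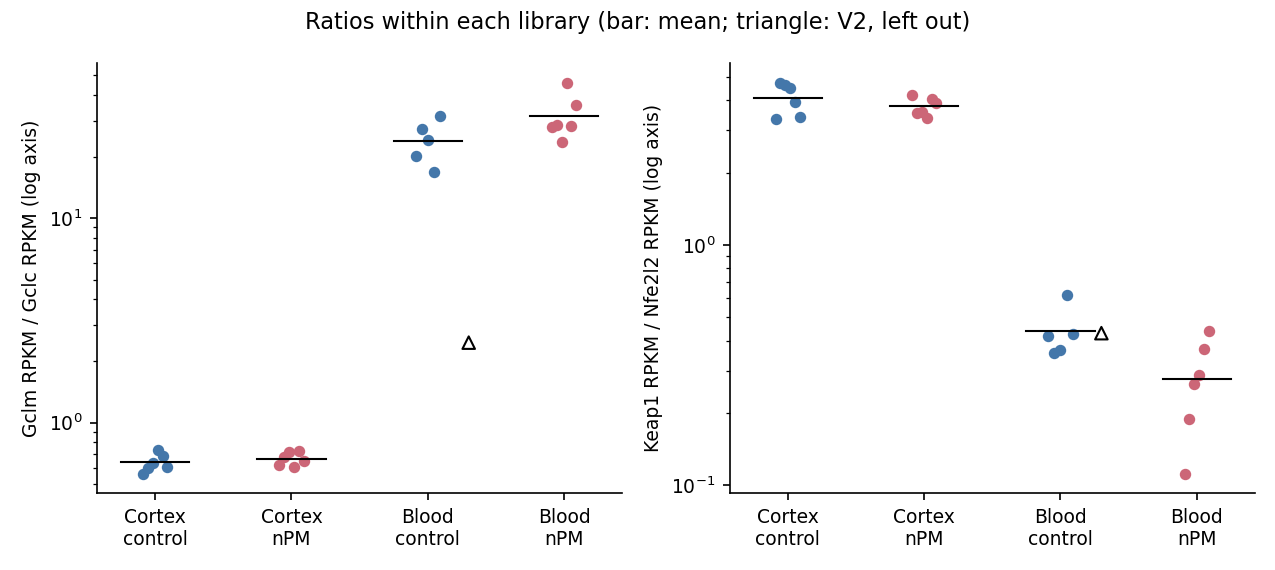
Ratio of Gclm to Gclc (left) and of Keap1 to Nfe2l2 (right), each from RPKM within 1 library and on a log axis, for the 4 groups; points are libraries, bars are means and the triangle is V2. Cortex and blood do not overlap for either ratio, while nPM and control do within each tissue.

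A direct test of control cortex against control blood was made with edgeR's quasi-likelihood test and TMM scaling, which sets libraries level on their shared genes. It called 10 of 10 members at an adjusted p under 0.05, where 77.8% of all 18026 genes were called, so the count says little about the members. With TMM, Gclm was lower in cortex by 7.13 on the log2 scale (log2 difference -7.13, SE 0.197) and Nqo1 by 5.23 (-5.23, SE 0.199), and both stayed lower in cortex when library size alone was used. Slc7a11 (2.27, SE 0.232), Txnrd1 (1.06, SE 0.150) and Keap1 (0.77, SE 0.129) were higher in cortex under both. With all 12 blood libraries the Txnrd1 difference fell to 0.55 and lost its call (edgeR adjusted p = 0.181).

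The other 5 members were lower in cortex with TMM but took the other sign with library size alone. Nfe2l2 was at -2.53 with TMM and 1.92 with library size alone, Gclc at -1.94 and 2.55, Gsr at -2.41 and 2.08, Srxn1 at -1.67 and 2.83, and Hmox1 at -2.50 and 1.96. The switch moved the median of all genes by 4.39 on the log2 scale, from 0.99 to 5.37, and the share of genes higher in cortex from 65.5 to 94.4%, so it turns any gene that TMM places below 0 by less than that shift. All 5 lay below the median of all genes under both. Limma voom, DESeq2, RLE scaling, TMM with globin genes left out, other filters and the inclusion of V2 kept the TMM direction of all 10 members. When counts were expressed per count outside globin genes, Nfe2l2, Gsr and Hmox1 differed by 0.01, 0.15 and 0.04 between the tissues, and their control libraries overlapped. On that scale Gclc was higher in cortex by 0.61 and Srxn1 by 0.89, with control libraries apart. The directions of these 5 genes are therefore relative to the scaling used.

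**Figure D3:**
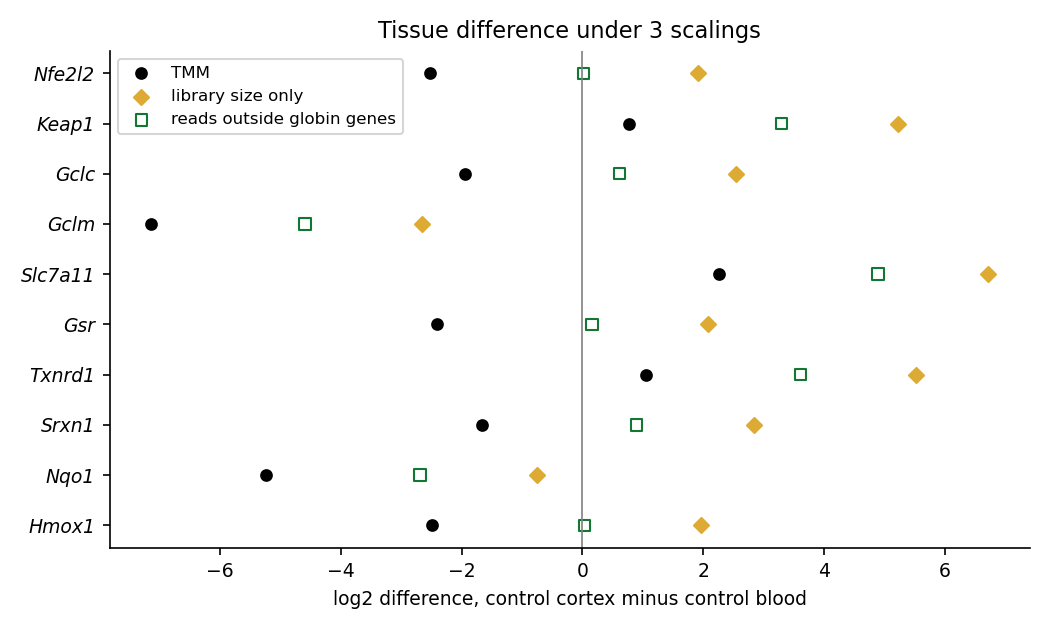
Difference between control cortex and control blood (log2) for each gene with TMM (black circles), per count outside globin genes (open green squares) and with library size alone (yellow diamonds). Gclm and Nqo1 lie left of 0 and Slc7a11, Txnrd1 and Keap1 right of 0 under all 3, and Nfe2l2, Gclc, Gsr, Srxn1 and Hmox1 cross from one side to the other.

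The main question of the design was whether prenatal nPM changed these genes. In cortex it gave no call: 0 of 10 members passed an adjusted p under 0.05 in edgeR's quasi-likelihood test with sex and RNA integrity number (RIN) as covariates, and 0 of 10 had an unadjusted p under 0.05. Limma voom and DESeq2 also called 0. Among all 20857 genes tested, 0.0144% passed the first threshold and 5.67% the second. The fitted differences of the members ran from -0.09 to 0.22 on the log2 scale with a median of 0.02, beside -0.00242 over all genes. No member's nPM and control libraries were fully apart, which held for 0.197% of all genes. In 3 alternatives 1 of 10 members had an unadjusted edgeR p under 0.05, and none was called. They were genes of at least 1 count in any library (2022 of 32461 genes under it), without V10 (1005 of 20935) and without V24 (1862 of 20963).

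The cortex values left room only for small changes in most members. Levels compared between exposures are in CPM scaled by TMM within a tissue. Nfe2l2 ran from 8.79 to 12.4 CPM (median 9.82) in the 6 control libraries and from 9.33 to 11.4 (median 10.5) in the 6 nPM libraries. The nPM range lay within the control range, with a log2 difference of 0.02 (95% interval -0.19 to 0.22). Keap1 ran from 47.1 to 52.1 CPM (median 50.9) in controls and from 45.7 to 51.4 (median 47.4) with nPM. It differed by -0.07 (-0.16 to 0.02), and an exact permutation test of its mean level gave p = 0.0584.

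Of the glutathione genes, Slc7a11 had the widest control range, 56.6 to 83.7 CPM (median 72.7), against 70.8 to 84.5 (median 79.1) with nPM. Its difference was 0.13 (-0.02 to 0.28). Gclc, Gclm and Gsr were held within narrower limits, at -0.02 (-0.13 to 0.09), 0.05 (-0.04 to 0.15) and -0.01 (-0.11 to 0.10). Txnrd1 stood at 77.3 to 89.4 CPM (median 79.1) in controls and at 75.7 to 87.5 (median 82.5) with nPM, a difference of 0.03 (-0.07 to 0.13). Srxn1 differed by -0.09 (-0.22 to 0.05).

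Hmox1, which breaks down heme, is often read as a sign of oxidative stress. In cortex it ran from 2.46 to 3.76 CPM (median 3.08) in controls and from 2.98 to 4.90 (median 3.46) with nPM. The groups overlapped, and the difference of 0.22 (-0.10 to 0.54) did not pass (unadjusted p = 0.158 in edgeR). Within sequencing lane 2, with 4 nPM and 4 control libraries, the log2 ratio of mean scaled CPM, without covariates, was 0.43. Within lane 3, with 2 of each, that ratio was -0.18. Nqo1 differed by 0.13 (-0.15 to 0.40). Leaving out 1 library at a time moved Hmox1 between 0.13 (without V11 or V15) and 0.292 (without V19), Nqo1 between 0.0619 (without V10) and 0.193 (without V23), and Slc7a11 between 0.0621 (without V14) and 0.184 (without V24). Keap1 reached -0.115 without V10, Srxn1 ran from -0.137 (without V10) to -0.0357 (without V24), and Txnrd1 from 0.00841 (without V20) to 0.0651 (without V16).

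Choroid plexus markers, which lie outside the cortex proper, had 4 of 4 members higher with nPM and a median difference of 0.35, none of them called. Their sum was 28.4 CPM in the control V14, 304 to 389 in the other 5 controls and 231 to 502 with nPM, and their part in the values of the members was not tested.

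In blood the same test called 0 of 10 members, and 0% of all 9977 genes. Limma voom and DESeq2 called 0 members as well. At an unadjusted p under 0.05 there was 1 of 10 members, Keap1, where 3.11% of all genes passed. The 5 control libraries gave Keap1 levels of 1.20 (V17), 1.25 (V22), 1.34 (V6), 1.36 (V4) and 1.65 CPM (V8). The 6 nPM libraries gave 0.353 (V1), 0.640 (V18), 0.837 (V3), 0.889 (V5), 1.11 (V7) and 1.23 CPM (V21). All but V21 lay below the lowest control, and V21 lay only just inside the control range. The log2 difference was -0.78 (SE 0.285, 95% interval -1.37 to -0.18, unadjusted p = 0.0134, adjusted p = 1.00 in edgeR).

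These Keap1 levels rested on 7 to 24 counts in the nPM libraries and on 19 to 38 in the controls. An exact permutation test of the mean gave p = 0.00866 on scaled CPM and p = 0.0563 on plain CPM. Within each sex the nPM libraries lay wholly below the controls, but with 2 control females and 3 libraries in each other group. This pattern was seen in 0.351% of all genes, a share that counts lower values only, where the other shares of groups apart count either direction. The log2 ratio of mean scaled CPM, without covariates, was -0.86 within lane 1 (4 nPM and 3 control libraries). Within lane 3 (2 of each) it was -0.39. The fitted difference kept its sign under every alternative in which Keap1 was tested, from -0.91 with all 12 blood libraries to -0.57 without V1, with adjusted p from 0.974 to 1. Without V1 its unadjusted p was no longer under 0.05. No blood member was fully apart between exposures, which held for 0.221% of all genes.

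**Figure D4:**
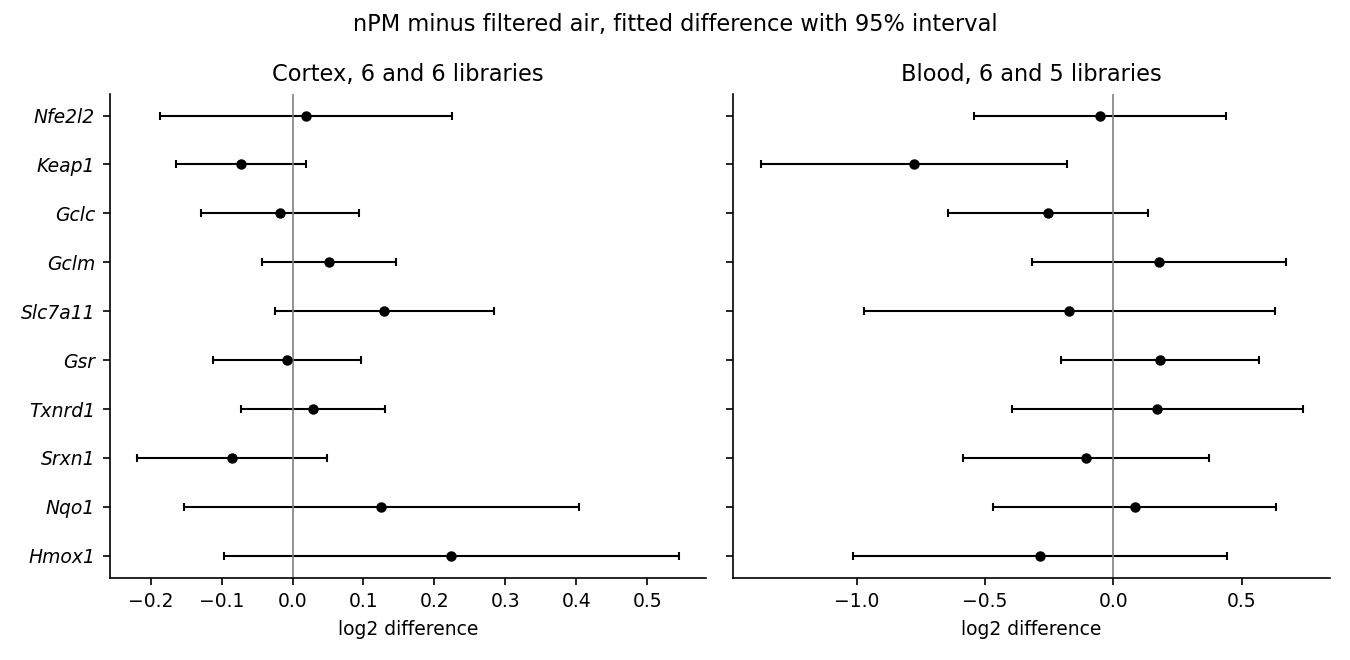
Fitted log2 difference, nPM minus filtered air, with its 95% interval for each gene in cortex (left) and blood (right); the horizontal scales differ. The 10 cortex intervals include 0 and stay between -0.22 and 0.54, and in blood the interval of Keap1 alone lies wholly below 0.

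The other blood members had wide intervals around small differences. Nfe2l2 ran from 1.77 to 3.14 CPM in controls and from 1.97 to 3.78 with nPM, a difference of -0.05 (-0.54 to 0.44). Gclm, the abundant one, ran from 226 to 332 CPM in controls and from 226 to 488 with nPM; the top values came from V3 and V7, and the difference was 0.18 (-0.32 to 0.67). Gclc differed by -0.26 (-0.64 to 0.13). Its exact permutation p was 0.156 on scaled CPM and 0.0260 on plain CPM, where nPM was lower by 0.717 CPM (-0.717).

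Gsr differed by 0.18 (-0.20 to 0.57), Txnrd1 by 0.17 (-0.40 to 0.74), Nqo1 by 0.08 (-0.47 to 0.63) and Srxn1 by -0.11 (-0.59 to 0.37). The least counted genes were the least certain, with Hmox1 at -0.29 (-1.01 to 0.44) and Slc7a11 at -0.17 (-0.97 to 0.63). With V2 put back Txnrd1 turned to -0.38 and Srxn1 to 0.18, Slc7a11 moved to -0.97, Gclm to 0.47, Gsr to 0.40, Nqo1 to 0.39 and Hmox1 to -0.46. Leaving out 1 library at a time moved Gclm between 0.0361 (without V3) and 0.283 (without V21), Txnrd1 between 0.0270 (without V17) and 0.319 (without V22), and Gsr between 0.0742 (without V4) and 0.265 (without V17). Gclc ran from -0.361 (without V4) to -0.123 (without V17), Hmox1 from -0.425 (without V21) to -0.0941 (without V1), and Srxn1 from -0.317 (without V4) to -0.0136 (without V5). Over the 10 members the median was -0.08, beside 0.00247 over all genes. In the same fit of both sexes platelet markers had 5 of 5 members higher with nPM, with a median of 0.26. B cell markers had 4 of 4 lower and meningeal markers 4 of 4, each with a median of -0.26. None of these markers was called, and their part in the values of the members, Keap1 included, was not tested. The nPM blood library V5 held the 26.4 CPM of neuron markers given above, where the 5 controls held 1.13 to 6.67. V5 also held 27.7 CPM of astrocyte and radial glia markers, against 0.147 to 3.86 in the 5 controls. Its oligodendrocyte lineage markers summed to 2.93 CPM, against 0.0913 to 0.692. Slc7a11, which is far higher in cortex, had its highest nPM count in V5, 16, and the part of the neuron and glial marker RNA in its level was not tested.

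Whether nPM acted differently in the 2 tissues was tested in 1 fit of 23 libraries. It called 0 of 10 members and 0% of the 9602 genes. Keap1 alone had an unadjusted p under 0.05, where 8.13% of all genes did. The nPM difference of Keap1 was higher in cortex than in blood by 0.60 (SE 0.207, unadjusted p = 0.00762, adjusted p = 0.411 in edgeR).

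The study also asked about sex, with 3 libraries in each group and 2 control females in blood. In cortex the interaction of nPM and sex called 0 of 10 members and 0% of all genes. At an unadjusted p under 0.05 there was 1 member against 9.68% of all genes. It was Gsr, whose nPM difference was lower in males by 0.20 (-0.20, SE 0.0897, adjusted p = 0.509 in edgeR). Control females had 31.0, 31.6 and 33.6 CPM of Gsr and nPM females 33.4, 33.8 and 34.8. Control males had 33.9, 35.2 and 35.9 CPM and nPM males 31.7, 33.1 and 33.2. The female groups overlapped slightly and the male groups did not. In male cortex Gsr and Keap1, 2 of 10 members, had groups apart, both lower with nPM, where 9.17% of all genes had groups apart in either direction. The unadjusted p of Gsr was no longer under 0.05 with DESeq2, with lane added, with genes of at least 1 count in any library, or without any 1 of V11, V12, V13, V14 and V19. In the other direction, 2 of 10 members had an unadjusted edgeR p under 0.05 without RIN (2296 of 20857 genes) and without V16 (2184 of 20963). The same count was found with edgeR's own expression filter (1935 of 19985). Erythroid markers had 7 of 7 members with a lower nPM difference in males, with a median of -0.40, and their part in the interaction values was not tested.

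Within cortex of females 0 of 10 members passed the adjusted threshold, which 1.11% of all 21731 genes passed, and 1 of 10 passed the unadjusted one, against 15.4%. Txnrd1 was at 77.3, 79.0 and 79.2 CPM in control females and at 82.2, 86.5 and 87.5 in nPM females. The groups were apart, as they were for 1 of 10 members and 21.6% of all genes, with a difference of 0.12 (SE 0.0475, unadjusted p = 0.0253, adjusted p = 0.246 in edgeR). With DESeq2, with the contrast taken from the fit of both sexes, or without any 1 of V11, V12 and V20, its unadjusted p was not under 0.05. In males the levels of Txnrd1 overlapped, at 77.4 to 89.4 and 75.7 to 82.8 CPM, and its difference between the sexes did not pass (interaction -0.19, unadjusted p = 0.0502).

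Within cortex of males the counts were 0 of 10 against 0% and 1 of 10 against 4.51%. The member was Srxn1, at 35.0, 41.6 and 45.0 CPM in controls and 34.6, 35.5 and 36.3 with nPM. The low control, V16, lay among the nPM values, and the fitted difference was -0.27 (SE 0.0872, unadjusted p = 0.0118, adjusted p = 0.962 in edgeR). Without RIN its unadjusted p was not under 0.05, and without V23 the difference was -0.419. In the male fit choroid plexus markers had 4 of 4 members higher with nPM, with a median of 0.74, and none was called. Endothelial markers had 4 of 4 higher, with a median of 0.15. Microglia markers had 5 of 5 lower, with a median of -0.21, and erythroid markers 6 of 7, with a median of -0.15. Their part in the male cortex values was not tested.

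In blood the interaction called 0 of 10 members and 0% of all genes, and 2 of 10 passed the unadjusted threshold, against 10.7%. The nPM difference of Nqo1 was lower in males by 1.05 (-1.05, SE 0.477) and that of Srxn1 by 0.93 (-0.93, SE 0.431), with edgeR adjusted p of 0.454 and 0.458. Control females had 3.94 and 6.72 CPM of Nqo1 and nPM females 3.64, 8.27 and 10.98. Control males had 3.00, 3.61 and 4.95 CPM and nPM males 2.01, 3.93 and 4.54. The exposure groups overlapped in both sexes, and V3 supplied the highest value of both genes. No member had an unadjusted p under 0.05 without RIN, where Nqo1 was at -0.66, with V2 put back, where Nqo1 was at -1.77 and Srxn1 at -1.61, with genes of at least 10 counts in every library, or without any 1 of V3, V4, V5, V6 and V21. Without V7, 4 of 10 members had an unadjusted edgeR p under 0.05, beside 1597 of 10037 genes, and none was called. Srxn1 ran from -1.35 (without V17) to -0.464 (without V4). Platelet markers had 5 of 5 members with a lower nPM difference in males, with a median of -1.10 and an unadjusted p under 0.05 in all 5. Erythroid markers also had 7 of 7 lower, with a median of -0.56. Neutrophil markers had 6 of 6 higher, T and NK cell markers 4 of 4 and B cell markers 4 of 4, with medians of 0.91, 1.17 and 0.87. Their part in the interaction values was not tested.

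Fits within 1 sex of blood called none of the members. In females 0 of 10 passed the adjusted and 0 of 10 the unadjusted threshold, which 0.0182 and 8.11% of all genes passed. In males the figures were 0 and 0 of 10 against 0 and 3.86%. In female blood Gclm and Txnrd1 were higher in all 3 nPM libraries than in both controls, by 0.56 (-0.28 to 1.41) and 0.61 (-0.20 to 1.41), and neither interval left out 0. Keap1 lay wholly below, which made 3 of 10 members apart, where 19% of all genes were. Platelet markers had 5 of 5 members higher in that fit, with a median of 0.83, and erythroid markers 7 of 7, with a median of 0.24. T and NK cell markers had 4 of 4 lower, with a median of -0.95, and B cell markers 4 of 4, with a median of -0.83. Their part in the female blood values was not tested. In male blood neutrophil markers had 6 of 6 members higher, with a median of 0.60, and meningeal markers 5 of 5, with a median of 0.82. Platelet markers had 5 of 5 lower, with a median of -0.25, and B cell markers 4 of 4, with a median of -0.35. Their part in the male blood values was not tested either.

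**Figure D5:**
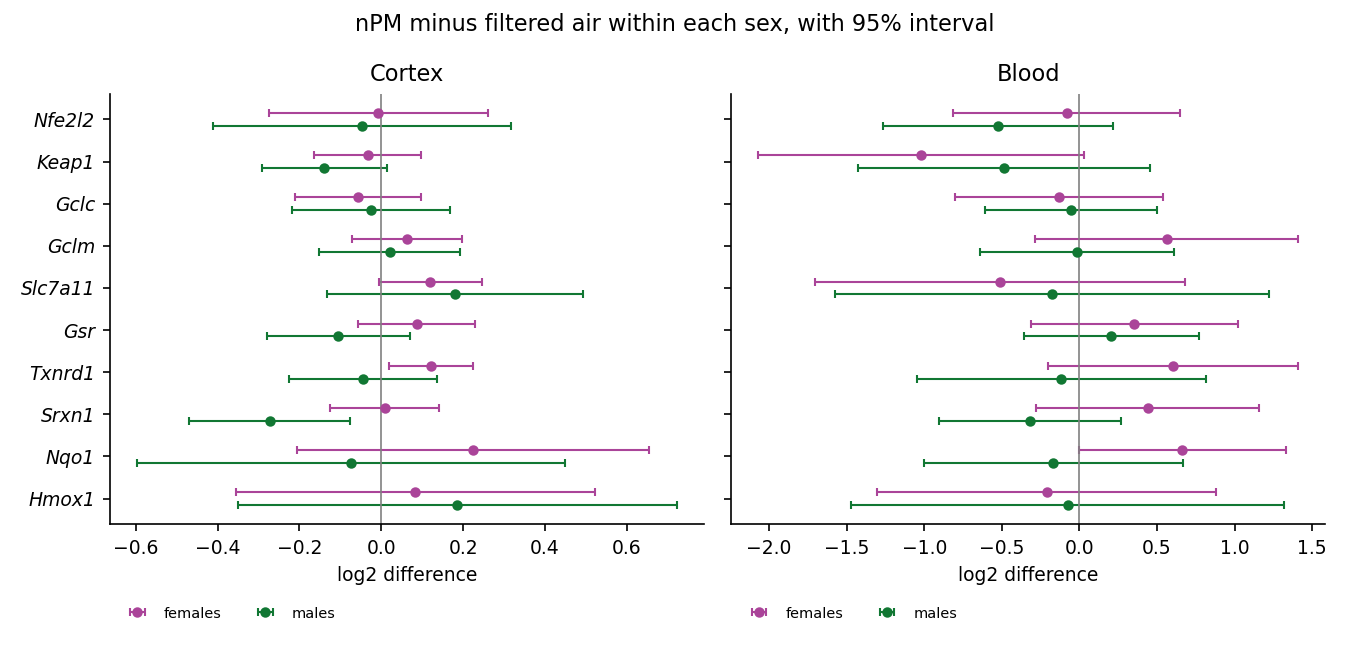
Fitted log2 difference, nPM minus filtered air, with its 95% interval within females (purple) and males (green) in cortex (left) and blood (right); the horizontal scales differ. The intervals of Txnrd1 in female cortex and of Srxn1 in male cortex leave out 0, and female and male intervals overlap for every gene.

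A wider list of 49 genes of the pathway was read in the same fits. It holds partners and control of NRF2, glutathione conjugation and export, carbonyl and other phase 2 enzymes, NADPH supply, thioredoxins and peroxiredoxins, and iron and heme targets. In cortex 42 were tested, 0 were called in either direction, and the median difference was 0.03. The 2 genes with an unadjusted p under 0.05 were both lower with nPM. They were Abcc1, an exporter of glutathione conjugates, at -0.11 (SE 0.0516), and Blvrb, a biliverdin reductase that acts after heme oxygenase, at -0.23 (SE 0.108), each with an edgeR adjusted p of 0.862. In blood 32 were tested, 0 were called, 0 had an unadjusted p under 0.05, and the median was 0.10.

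In cortex of females 15 of the 43 listed genes tested had an unadjusted p under 0.05, beside 3349 of all 21731 genes (15.4%), and 0 passed the adjusted threshold. The median was 0.10, beside -0.00221 over all genes, with 32 higher and 11 lower. The 4 smallest p-values belonged to Ephx1, an epoxide hydrolase, at 0.47 (SE 0.128), Idh1, which makes NADPH in the cytosol, at 0.23 (SE 0.0724), Tkt, the transketolase of the pentose phosphate pathway, at 0.15 (SE 0.0486), and Txn1, thioredoxin, at 0.15 (SE 0.0487). Their edgeR adjusted p-values were 0.104, 0.145, 0.167 and 0.170. In the same fit erythroid markers had 6 of 7 members higher, with a median of 0.16, and choroid plexus markers 4 of 4, with a median of 0.22. Meningeal markers had 4 of 5 higher, with a median of 0.22. Astrocyte and radial glia markers had 4 of 5 higher, with a median of 0.02, and 1 of them passed the adjusted threshold. Microglia markers had 4 of 5 lower, with a median of -0.11. The part of these markers in the listed genes was not tested. In cortex of males 1 of 43 had such a p, Osgin1, at 1.72 (SE 0.722, adjusted p = 0.962).

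The interaction in cortex had 8 of 42 listed genes at an unadjusted p under 0.05, beside 2018 of all 20857 genes (9.68%). All 8 had a lower nPM difference in males, and 0 were called. Erythroid markers moved the same way, as given above. The smallest p-values were those of Taldo1 (-0.24), Txn1 (-0.24), Gstp1 (-0.24) and Fth1 (-0.20), with edgeR adjusted p from 0.403 to 0.468. In blood 10 of 32 had such a p, beside 1064 of all 9977 genes (10.7%), again all lower in males and none called. The blood cell markers given above moved in the same fit, and the erythroid and platelet ones were also lower in males. The list was led by Gss, glutathione synthetase, at -2.58 (SE 0.773, adjusted p = 0.452). The female and interaction values share the same libraries and are not independent of each other. In female blood Gss was higher with nPM by 1.89 (SE 0.466, adjusted p = 0.440) and Txn1 by 1.03 (SE 0.341, adjusted p = 0.573). Of the 34 listed genes tested there 7 had an unadjusted p under 0.05, beside 893 of all 11013 genes (8.11%). In male blood it was 1 of 33, beside 409 of all 10602 genes (3.86%). The gene was Pgd, at 0.66 (SE 0.287, adjusted p = 1.00).

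Across libraries of a tissue, the genes whose level most resembled that of Nfe2l2 were found by Pearson's r of log2 scaled CPM plus 0.5, as a description over libraries that share sex and exposure groups. In cortex (12 libraries, 20857 genes) they were Sh3rf1 (r = 0.877, Spearman's rho = 0.902), Psmb8 (0.872 and 0.909) and Slc1a3 (0.865 and 0.825). In blood (11 libraries, 9977 genes) they were Arhgap9 (0.903 and 0.891), Gm1966 (0.890 and 0.836) and Nfkbie (0.847 and 0.855). None of the members was among them.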

How the data were processed

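RNA from blood and cerebral cortex was depleted of ribosomal RNA (RiboZero Gold) and sequenced by the authors on an Illumina instrument. HISAT2 served the authors for alignment to mm10 and featureCounts (1.5.0-p3, in the submitters' processing notes) for counting over Gencode M11, and the deposited gene counts are not normalized. The deposited gene table also gives coordinates, lengths and the authors' mean RPKM over the 24 libraries, which was not used. All 24 columns were mapped by title. Intervals and tests cover no error of alignment or counting.

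RPKM and CPM were computed here from the counts. Tests were edgeR 4.0.16 quasi-likelihood F tests (two-sided, R 4.3.3, TMM, prior count 0.125) on genes that no library of the fit had at 0, or with at least 10 counts in at least 5 libraries between tissues, with Benjamini-Hochberg adjustment over all genes tested. Exposure fits had sex and RIN as covariates, fits of 1 sex had RIN, and tissue fits had sex without RIN. Single members were also tested with exact two-sided permutation tests (scipy 1.17.1), which can give no p under 0.00216 for 6 against 6 and 0.00433 for 6 against 5. Scripts were tested on simulated counts. Alternatives were limma voom 3.58.1, DESeq2 1.42.0, other scalings, filters and covariates, V2 included, and each library left out.

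The members and gene lists were chosen with earlier results of these data known. All 10 members are named. In the nPM fits other genes of the pathway list are named when called or, where none was, for up to 4 of the smallest unadjusted p under 0.05. Cell type markers are given only as sets, and pathway genes called between tissues are not named. The 3 genes most like Nfe2l2 per tissue are named.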

Additional observations from a re-analysis of the deposited data

Results flagged for a closer look

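Of the 40 sets of libraries examined (10 members in 4 groups, V2 left out), 2 held a library far from the rest of its group, where chance alone flags about 1 in 20. Gsr in control female V17 of blood was at 10.9 CPM, and the other 4 controls were at 7.01 to 7.74. Srxn1 in nPM female V3 of blood was at 8.32 CPM, and the other 5 nPM libraries were at 3.98 to 5.44.

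Blood library V2 was used in no main comparison, and 7 members were higher in it than in any of the other 11 blood libraries on plain CPM. Txnrd1 was at 61.6 CPM against 1.19 to 2.52, Gclc at 46.1 against 4.48 to 6.53, and Slc7a11 at 37.8 against 0.216 to 1.19. Nfe2l2 was at 24.98 CPM against 1.35 to 4.23, Gsr at 17.3 against 5.34 to 11.6, Keap1 at 13.2 against 0.360 to 1.74, and Hmox1 at 11.6 against 0.434 to 1.10. Gclm, Nqo1 and Srxn1 were within the range of the others on that scale. The order depended on the scaling. With TMM over all 12 blood libraries Txnrd1, Slc7a11, Keap1 and Hmox1 stayed above the others in V2. Nfe2l2 (3.83 CPM) and Gclc (7.07) lay within their range. Gsr fell to 2.66 CPM, against 8.21 to 14.4 in the others. Gclm (31.9), Nqo1 (0.529) and Srxn1 (0.912) also lay below all others.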

How the results depend on the processing

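The count of members called was 0 under every alternative in each nPM comparison, and 9 or 10 between tissues. Counts over all genes moved. With DESeq2 they were 22 (cortex nPM), 1 (blood nPM), 50 and 4 (interaction with sex in cortex and blood), 443 and 3 (female and male cortex), 1 (male blood) and 49 (tissue by nPM). With genes of at least 1 count in any library they were 185, 28, 379, 81, 1280, 155, 59 (female blood) and 83 in that order. Cortex nPM gave 1 without RIN and 1 with lane added. Female cortex gave 0 as a contrast from both sexes. Female blood gave 1 with limma voom, 1 without RIN and 0 with V2 included. Between tissues 8861 genes were called with at least 1 count in every library. Leaving out 1 library at a time gave 0 to 6 called genes for cortex nPM (6 without V24), 0 to 1 for each interaction with sex, 23 (without V11) to 383 (without V09) for female cortex, 0 to 8 for male cortex (8 without V24), 4 to 570 for female blood (570 without V18), 0 to 1 for male blood and 0 to 2 for tissue by nPM. Without V4 or V17 a single control female remained in blood, which was assumed to vary like the nPM females.

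Between tissues, library size alone, which moved the median of all genes by 4.39, turned Nfe2l2 (1.92), Gclc (2.55), Gsr (2.08), Srxn1 (2.83) and Hmox1 (1.96). With V2 included the blood nPM differences of Txnrd1 (-0.38) and Srxn1 (0.18) reversed, as did Srxn1 on plain CPM (0.0497). Leaving out 1 library reversed small nPM differences in cortex (Gclc -0.0416 to 0.0194, Gsr -0.0352 to 0.0114, Nfe2l2 -0.0481 to 0.0901) and blood (Nfe2l2 -0.238 to 0.0304, Nqo1 -0.0850 to 0.259, Slc7a11 -0.327 to 0.0547). The cause was not tested. No paired analysis was possible because the labels give no replicate number that ties libraries of different groups. Depth limits blood Keap1, Hmox1 and Slc7a11 most.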
